A study of Mus musculus with 7 samples.

Results

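Fibroblast nuclei were a rare population of the lung tumors of RP and RPC mice, with 195 members among 38254 nuclei. They were chosen on their measured transcripts. A nucleus was a member when at least 3 of the 8 fibroblast genes Col1a1, Col1a2, Col3a1, Pdgfra, Dcn, Lum, Col13a1 and Mgp had a count, when these genes together made up at least 0.15% of its transcripts, and when their sum was at least that of 8 mural genes (Pdgfrb, Notch3, Gucy1a1, Cspg4, Myh11, Acta2, Tagln, Rgs5), which mark smooth muscle cells and pericytes. The levels of these 16 genes in the members, and any distance between members and other nuclei, therefore follow from the choice and are given as a description with no test. The question tested was how the fibroblast nuclei of RPC tumors differed from those of RP tumors.

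Transcripts of single nuclei were counted in fresh-frozen small cell lung cancer (SCLC) taken at endpoint from 4 male mice, 2 per genotype. RP1 and RP2 carried Rb1 fl/fl and Trp53 fl/fl, and RPC1 and RPC2 carried these alleles together with loss of Casp8, which the labels write as Casp8-/- and the study describes as a conditional allele. All 4 animals had inhaled adenovirus with Cre under a CMV promoter, which is not restricted to a cell type, so that the alleles can be lost in any lung cell that took up virus. Each of the 7 sequenced libraries pooled nuclei of all animals, and the animal was the replicate (n = 2 per genotype).

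Fibroblasts are the connective tissue cells of the lung. They secrete collagens, elastin, fibronectin and proteoglycans, cross-link them into matrix, and send growth factors and guidance cues to epithelium and vessels. In mouse lung, alveolar fibroblasts of the gas exchange region (marked by Npnt, Itga8, Inmt and Slit2 among others) are distinguished from adventitial fibroblasts around bronchi and vessels (Pi16, Dpp4, Mfap5, Col14a1), and in tumors a cancer-associated state with periostin, tenascin C and further collagens is described.

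Values per animal are given in the order RP1, RP2, RPC1, RPC2 where 4 stand together. The members numbered 51, 78, 39 and 27, and they held a median of 3666, 3333, 5756 and 2932 transcripts, against 2249, 2215, 3387.5 and 2767 in the other nuclei. Summed over members, the animals had 275181, 365021, 300150 and 128082 transcripts, so that values of RPC2 rest on the fewest counts. Rn18s-rs5, a ribosomal RNA, took 14.1%, 10.5%, 4.21% and 5.61% of the members' transcripts, and 9.95%, 8.47%, 3.09% and 5.35% of those of the other nuclei. All levels are therefore CPM values, that is counts summed over the nuclei of an animal per 1000000 transcripts other than Rn18s-rs5. No barcode was shared between animals, and the 7 sublibraries held between 23 and 37 members each.

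Genes the rule did not use were set beside markers of other cells, as a description. Prrx1, a mesenchymal transcription factor, stood at 250, 135, 157 and 207 CPM in the members and between 1.67 and 3.30 CPM in the other nuclei. It is among the genes named below for their high fold over the other nuclei. In mural nuclei, chosen by the mirror image of the rule, it stood at 326, 267, 242 and 137 CPM. The 22 mesenchymal transcription factors summed to 6188, 6642, 6493 and 6990 CPM in the members and 7354, 7795, 8174 and 6972 CPM in mural nuclei. Prrx1 and the sum of these factors thus do not separate members from mural nuclei. A single factor of the list can, as Ebf1 was higher in mural nuclei of every animal (values below). Of 14 neuroendocrine tumor genes, the members had a summed level of 4529, 3720, 5325 and 4409 CPM, which is 52.0%, 49.1%, 49.5% and 36.1% of that in the other nuclei, so transcripts of tumor genes were also counted in the members. The 8 mural genes, which the rule did use, summed to 1062, 578, 661 and 356 CPM (31.4 to 59.8 in other nuclei), and 42 members had counts of 3 or more of them, namely 16, 11, 11 and 4. Mesothelial genes (Msln, Wt1, Upk3b, Upk1b and 4 others) summed to 131, 248, 362 and 157 CPM, and 2, 9, 6 and 1 members had 2 or more of them. Lists of airway and alveolar epithelium, lymphocytes and Schwann or cartilage cells summed to lower levels in the members than in the other nuclei, or to at most 18.4 CPM for the last. Endothelial genes summed to 385, 309, 369 and 108 CPM against 114, 147, 114 and 156 CPM in the other nuclei, so they were higher in the members of 3 of 4 animals. Macrophage genes summed to 224, 236, 129 and 165 CPM against 92.7, 113, 84.2 and 74.5 CPM and were higher in all 4. In counts, the endothelial list had 91, 101, 106 and 13 in the members and the macrophage list 53, 77, 37 and 20. Over all members, Pecam1 and Cdh5 of endothelium had 20 and 3 counts, and Mrc1 and Marco of macrophages had 11 and 1. Other genes of both lists thus gave most of the counts. Cd3e of T cells had 0, while the lymphocyte list had 145, 128, 164 and 52. The part of these transcripts in the results was not tested. Of the 8 fibroblast genes, Lum had no count in any member (a count of 0 allows up to 3), so that the rule rested on the other 7.

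At the limits of the rule, 70 members had exactly 3 of the fibroblast genes, while 50 nuclei outside had 2 of them and met the other conditions. A further 191 nuclei had 3 or more genes and lay under the percentage, and 37 had more mural than fibroblast transcripts. The lowest member share of fibroblast transcripts was 0.1561%, 0.1509%, 0.1567% and 0.1524%, and the highest among nuclei just outside was 0.1499%, 0.1426%, 0.1487% and 0.1279%. No nucleus had all 7 detected genes.

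Fibroblast nuclei made up 0.610% of the kept nuclei of RP1 (exact 95% binomial interval 0.454 to 0.801), 0.879% of RP2 (0.695 to 1.1), 0.359% of RPC1 (0.256 to 0.491) and 0.266% of RPC2 (0.175 to 0.386). Both RPC animals lay below both RP animals. The mean was 0.744% ± 0.190 in RP and 0.312% ± 0.0663 in RPC (SD, n = 2), a difference of -0.432 points and an RP share 2.38 times that of RPC. With 2 against 2 animals an exact permutation test (two-sided) cannot go below p = 0.333, the value found here (0.333 after adjustment over 2 tests). Intervals cover counting error only. Since the rule needs several transcripts in a nucleus, depth bears on it, and RPC1 had the deepest nuclei. Thinned to 1000 transcripts per nucleus, the shares were 0.392%, 0.430%, 0.170% and 0.117%, with 1218, 1208, 295 and 723 shallower nuclei left out. With at least 4 genes and 0.3% of transcripts they were 0.215%, 0.372%, 0.184% and 0.0984%. The values of the genotypes did not overlap in any of these settings, but their intervals could. Under the stricter rule RP1 had 18 members (0.128 to 0.340) and RPC1 had 20 (0.113 to 0.284). In the barcoding wells, each of which held 1 animal, members were 32 of 4100 and 19 of 4263 nuclei in RP1, 39 of 4380 and 39 of 4494 in RP2, 13 of 4018, 10 of 3502 and 16 of 3333 in RPC1, and 11 of 5285 and 16 of 4879 in RPC2. Nuclei chosen by the mirror image of the rule, as mural nuclei, numbered 31, 24, 31 and 30.

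**Figure D1:**
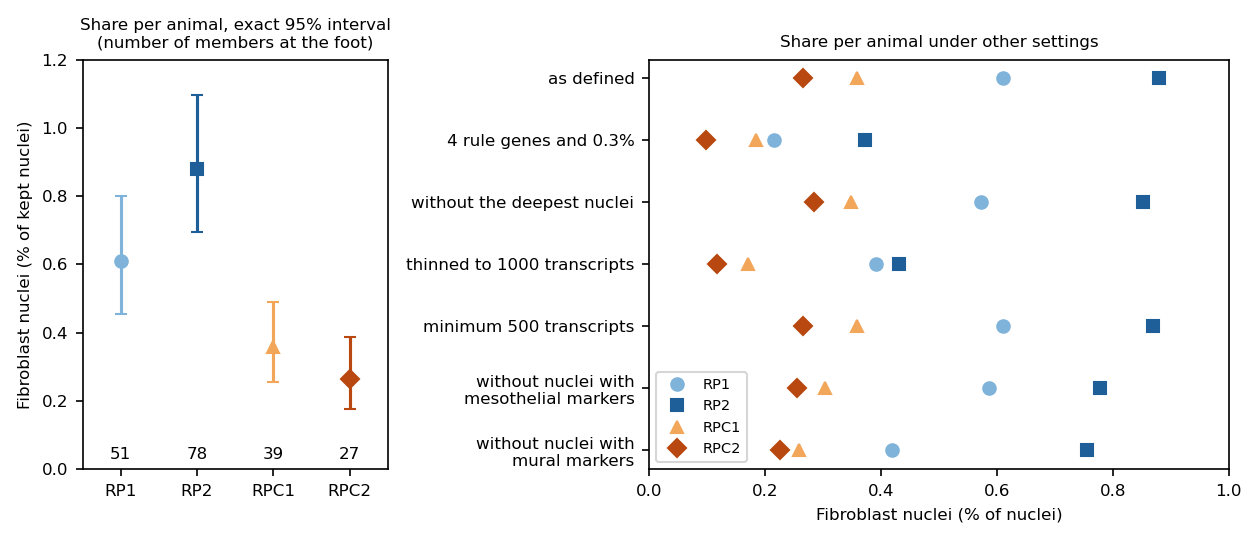
Share of fibroblast nuclei per animal. Left, percent of kept nuclei with the exact 95% binomial interval as bars and the number of members at the foot. Right, the percent per animal under 7 settings of the rule or the nuclei, where each RPC animal lies left of both RP animals in every row.

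The genes of the rule had the levels it selects for. Col1a1, an alpha chain of type I collagen, stood at 1308, 1046, 772 and 480 CPM and was counted in 86.7% of members. Col1a2 stood at 1266, 1006, 1207 and 736 CPM (88.2% of members), and Col3a1 of type III collagen at 1266, 1190, 727 and 579 CPM (90.8%). These collagens were the genes that most members were chosen on. Pdgfra, the receptor for platelet-derived growth factors that marks lung fibroblasts, stood at 229, 698, 595 and 1125 CPM (55.9%), with RP1 lowest and RPC2 highest. Mgp, an inhibitor of matrix calcification, stood at 212, 202, 268 and 207 CPM (49.7%). The proteoglycan Dcn and the membrane collagen Col13a1 were counted in 20.5% and 19.0% of members. Dcn stood at 46.6, 91.8, 41.7 and 124 CPM, and in the other nuclei of RP2 it was also counted at 30.4 CPM, against 3.09 to 5.90 in those of the other animals. Col13a1 stood at 59.3, 97.9, 97.4 and 240 CPM.

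Outside the rule, 1255 genes had at least 100 counts in the members, with at least 20 in each animal. Of these, 86 were more than 10-fold higher in members than in other nuclei in every animal, 224 more than 2-fold, and 12 were less than 0.5 times the level of the other nuclei in every animal. The 15 with the highest lowest fold were led by matrix genes. Svep1, a large adhesion protein of the matrix, stood at 182, 294, 518 and 1050 CPM, 110- to 392-fold above the other nuclei. Col5a2, a chain of type V collagen that nucleates collagen fibrils, stood at 957, 1028, 1342 and 1142 CPM, 87.7- to 170-fold above, and was counted in 82.6% of members. Lama2, the alpha chain of laminin of mesenchymal basement membranes, was 52.7- to 123-fold higher, Eln, elastin, 49.5- to 212-fold, and Tnc, tenascin C, 49.3- to 149-fold. The guidance ligands Slit2 and Slit3 were 50.4- to 154-fold and 51.7- to 112-fold higher. The transcription regulators Prrx1 (73.2- to 124-fold), Bnc2 (58.3- to 143-fold) and Prdm6 (51.3- to 199-fold) were among them, as were Nox4, an NADPH oxidase that makes hydrogen peroxide (52.6- to 173-fold), and the transporter Abca8a (67.3- to 261-fold). C1qtnf7, Trabd2b and the non-coding RNA Mir100hg completed the list with lowest folds of 60.5, 53.7 and 50.5.

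**Figure D2:**
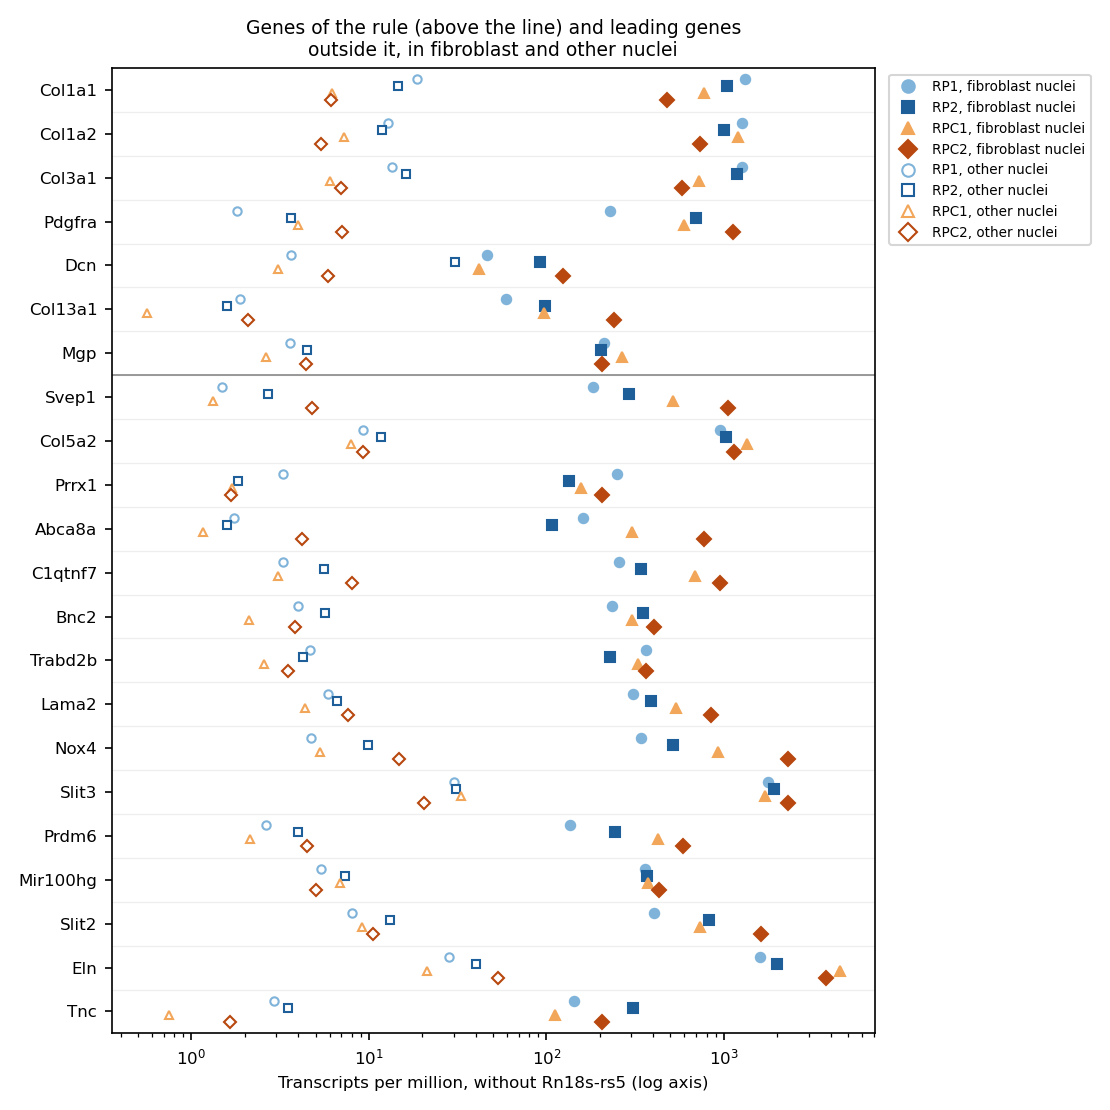
Levels of the 7 detected fibroblast genes of the rule (above the line) and of the 15 leading genes outside it, in CPM without Rn18s-rs5 on a log axis. Filled symbols are fibroblast nuclei and open symbols other nuclei of the same animal, 1 symbol per animal. For each leading gene all filled symbols lie at least 49.3-fold to the right of the open symbol of the same animal.

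Some of these genes separated fibroblast from mural nuclei and others did not. Svep1 stood at 49.6, 59.4, 39.4 and 19.6 CPM in mural nuclei and Abca8a at 35.4, 9.90, 33.8 and 39.3 CPM, below the members of the same animal in each case. Slit3 stood at 1899, 2803, 2370 and 1934 CPM in mural nuclei against 1769, 1927, 1704 and 2300 CPM in the members. Prrx1 was higher in mural nuclei in 3 of 4 animals (326, 267, 242 and 137 CPM), and Ebf1 in all 4 (1615, 971, 1402 and 1581 CPM against 897, 150, 536 and 430 CPM). Inmt, a methyltransferase of alveolar fibroblasts, and Mmp2, a gelatinase, had no count in mural nuclei, although Inmt had only 1 count in the members of RP1.

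The matrix program was seen across its classes, in the members and in mural nuclei. The 26 genes of elastic fibers and matrix glycoproteins summed to 6683, 8407, 11213 and 9835 CPM in the members and 324 to 494 CPM in the other nuclei. Eln was counted in 64.6% of members, Fn1 (fibronectin) in 77.9%, Fbn1 (fibrillin 1, the microfibril scaffold of elastin) in 78.5% and Sparc in 79.0%. Fn1 stood at 1414, 1961, 2125 and 1315 CPM and Fbn1 at 660, 676, 779 and 521 CPM, and the genotypes overlapped in both. The 8 further fibrillar collagens summed to 1930, 1683, 1979 and 1506 CPM against 45.5 to 99 CPM elsewhere. Basement membrane and laminin genes summed to 2929, 3212, 3078 and 2829 CPM. In mural nuclei they summed to 4144, 3734, 4025 and 3309 CPM, above the members of every animal. Collagen processing genes were likewise higher in mural nuclei of every animal (1750, 1941, 1807 and 1237 CPM). Elastic fiber and glycoprotein genes were higher there in RP2 only (5179, 9083, 5686 and 6373 CPM). The 8 fibrillar collagens were lower there in every animal (1112, 1605, 1734 and 854 CPM). Proteoglycan genes were higher there in every animal (5002, 2783, 3006 and 2681 CPM, against 2108, 1227, 1367 and 2076 CPM in the members). Further collagens were higher there in RP1, RPC1 and RPC2 (2480, 2694, 3547 and 3349 CPM, against 2286, 2818, 2935 and 1787 CPM in the members). In the other nuclei further collagens summed to 1472, 2155, 3472 and 3763 CPM, above the members of both RPC animals. Among the further collagens, Col8a1 of short-chain type VIII collagen was higher in the other nuclei (1392, 2033, 3262 and 3654 CPM) than in the members (791, 1325, 1746 and 1108 CPM). In the same list, Col6a1, Col6a2 and Col6a3 of microfibrillar type VI collagen were 26.4- to 114-fold above the other nuclei. Enzymes that process collagen were also counted. The lysyl oxidase Loxl1 stood at 114, 150, 174 and 149 CPM, and Adamts2, which trims procollagen, at 461, 410, 424 and 306 CPM.

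The balance of subtype genes was read as the alveolar share of the transcripts of the alveolar and adventitial lists. It is not corrected for gene length, so it compares animals and not the lists. The 14 alveolar genes had 525, 1210, 1518 and 1035 counts in the members and the 14 adventitial genes 105, 108, 91 and 51. The alveolar share was 83.3%, 91.8%, 94.3% and 95.3%, with a mean of 87.6% ± 5.99 in RP and 94.8% ± 0.679 in RPC (SD, n = 2). The difference was 7.25 points, again with the lowest p that this design allows (exact permutation test, p = 0.333). RP1 stood apart from the other animals, and without it the difference was 3.02 points. Limch1, an actin-associated protein, gave many of the alveolar counts and was also high in other nuclei (802 to 1369 CPM). Without it and without Col14a1, the adventitial gene with most counts, the shares were 87.0%, 91.3%, 91.5% and 92.3%. Among adventitial genes only Mfap5 and Col14a1 passed the filter on low counts. Pi16 had 10 counts in all members, Dpp4 had 17 and Cd34 had 19.

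The alveolar and cancer-associated lists met in the same nuclei. Of the 195 members, 127 had 2 or more alveolar genes other than Limch1, 102 had 2 or more of the 15 cancer-associated genes, 77 had both and 43 neither. Nuclei with both were 60.6% of the former and 75.5% of the latter. By animal, alveolar genes were seen in this way in 49.0%, 59.0%, 79.5% and 92.6% of members, and cancer-associated genes in 64.7%, 46.2%, 64.1% and 29.6%. The same criterion was met by 15.8%, 12.5%, 38.7% and 22.6% of the other nuclei for the alveolar list and by 2.41%, 2.16%, 2.81% and 4.45% for the cancer-associated list, at the median depths given above. Of the mural nuclei, 38.7%, 50.0%, 64.5% and 43.3% met it for the alveolar list. For the cancer-associated list 51.6%, 79.2%, 71.0% and 50.0% of them did, more than of the members in RP2, RPC1 and RPC2. Thinned to 1000 transcripts, the alveolar criterion was met by 21.7%, 33.8%, 41.0% and 81.5% of members and 2.01% to 5.51% of other nuclei, and the cancer-associated criterion by 26.1%, 18.3%, 28.2% and 7.41% of members. Thinned mural nuclei met the cancer-associated criterion in 19.4%, 50.0%, 40.0% and 13.8%. Among the members, RPC2 therefore had the highest alveolar and the lowest cancer-associated values. In its 27 members Postn had no count and Col12a1 and Col15a1 had 3 and 1, whereas Postn had 29, 7 and 41 counts in RP1, RP2 and RPC1, Col12a1 47, 81 and 107, and Col15a1 75, 56 and 58. Fap, the protease that names activated fibroblasts, had 20, 19, 18 and 7 counts and was higher in mural nuclei (108 to 231 CPM) than in members (57.9 to 84.6 CPM).

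**Figure D3:**
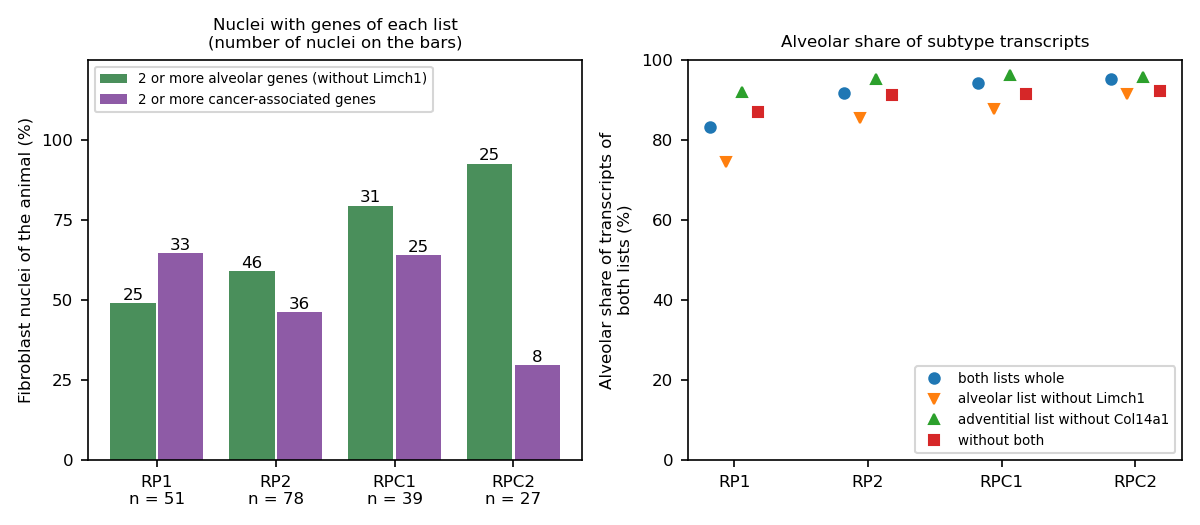
Subtype genes in the fibroblast nuclei of each animal. Left, percent of members with 2 or more genes of the alveolar list (without Limch1) or of the cancer-associated list, with the number of nuclei on the bars. Right, alveolar share of the transcripts of the alveolar and adventitial lists, whole and without the most abundant gene of either list, and RP1 has the lowest value in each form.

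The targeted genes were looked at first in the comparison of genotypes. Casp8, the initiator caspase of death receptor signaling (chromosome 1, 58834375 to 58886665, GRCm39), had 10, 12, 25 and 3 counts in the members, or 42.3, 36.7, 86.9 and 24.8 CPM. The genotypes overlapped (edgeR log2 fold change 0.72 ± 0.54 SE, adjusted p = 0.686), as they did for Rb1 with 46, 74, 71 and 26 counts (0.16 ± 0.29) and Trp53 with 14, 6, 7 and 8 counts (0.11 ± 0.71). Counts over a whole gene do not separate a deleted from an intact allele, so the labels could not be checked on them. In the other nuclei Casp8 stood at 65.7, 68.9, 96.3 and 71.6 CPM. Of further death genes, Ripk1 and Mlkl of necroptosis had between 9 and 18 counts per animal with overlapping genotypes, and Ripk3 had 2 counts in all.

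RPC fibroblast nuclei had 3 genes higher than RP at an adjusted p under 0.05 (edgeR quasi-likelihood test) and none lower, of 5730 tested (0.0524%). At an unadjusted p under 0.05 there were 642 (11.2%). DESeq2, fitted to 18548 genes, called 23, 16 higher and 7 lower, which included these 3. Over all tested genes the median log2 fold change was 0.01. DESeq2's lower genes included Rn18s-rs5 itself, whose share was higher in both RP animals in members and other nuclei alike, and its part in the other differences was not tested. RPC animals lay above both RP animals in 1208 genes (21.1%) and below both in 1260 (22.0%).

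Kazn, which encodes the cell junction and cytoskeleton protein kazrin (chromosome 4, 141829701 to 142205056, minus strand), had 16, 18, 94 and 88 counts. These were 67.7, 55.1, 327 and 728 CPM, and both RPC animals lay above both RP animals (log2 fold change 3.08 ± 0.43 SE, adjusted p = 0.0499). In the other nuclei Kazn was lower in RPC, at 28.0, 27.4, 14.9 and 19.5 CPM. Few nuclei carried the difference: 55 of the 94 counts of RPC1 and 37 of the 88 of RPC2 came from 1 nucleus each, and 9, 12, 13 and 10 members had a count. Without the nucleus with most of its counts in each animal, an alternative chosen after the data had been seen, the log2 fold change was 2.59 with an adjusted p of 0.168.

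9530026P05Rik, a long non-coding RNA (chromosome 6, 92917271 to 93250030, plus strand), had 41, 77, 258 and 115 counts, or 174, 236, 897 and 951 CPM (log2 fold change 2.18 ± 0.31 SE, adjusted p = 0.0499). It was counted in 49.7% of members and its counts were spread over nuclei, with at most 26 from 1 nucleus. The other nuclei moved the same way (11.2, 24.5, 49.1 and 34.1 CPM), and the difference between both changes was 0.95 ± 0.31 (adjusted p = 0.331). The gene overlaps Adamts9 on the opposite strand, and no source states that counting used strand, so reads of both cannot be told apart here. Adamts9, a matrix protease, stood at 161, 229, 226 and 331 CPM with overlapping genotypes.

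4930578G10Rik, another long non-coding RNA (chromosome 4, 42659026 to 42872626, plus strand, with 10 annotated genes inside or across its span), had 29, 45, 159 and 127 counts, or 123, 138, 553 and 1050 CPM (log2 fold change 2.61 ± 0.38 SE, adjusted p = 0.0499). It was 30.2- to 109-fold above the other nuclei, where it stood at 4.06, 3.84, 6.95 and 9.64 CPM, higher in RPC as well. The difference between both changes was 1.53 ± 0.32 (adjusted p = 0.0858). All 3 calls were lost when each gene was taken without its top nucleus (lowest adjusted p 0.0972) and with the stricter rule. The calls of Kazn and 9530026P05Rik were also lost without nuclei above 4 times the median depth, and that of Kazn without nuclei that held 2 or more mesothelial genes (log2 fold change 2.25, adjusted p = 0.0655).

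Genes next in order did not pass the threshold (adjusted p from 0.0616 to 0.0688). Corin, a protease that activates natriuretic peptide, had 0, 4, 44 and 12 counts, and Frmpd4, a synaptic scaffold protein, stood at 135, 180, 1030 and 471 CPM. Pabpc4, which binds poly(A) tails, stood at 182, 174, 31.3 and 33.1 CPM, and Npas3, a neuronal transcription factor, at 127, 174, 17.4 and 33.1 CPM. Scarna2, a small Cajal body RNA, stood at 394, 780, 90.4 and 116 CPM and Gm15564 at 588, 1276, 184 and 149 CPM. The other nuclei of the same animals differed in the same direction in these 6 genes: Corin stood there at 25.0, 28.6, 369 and 206 CPM, and Pabpc4 at 585, 363, 24.9 and 37.3 CPM.

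**Figure D4:**
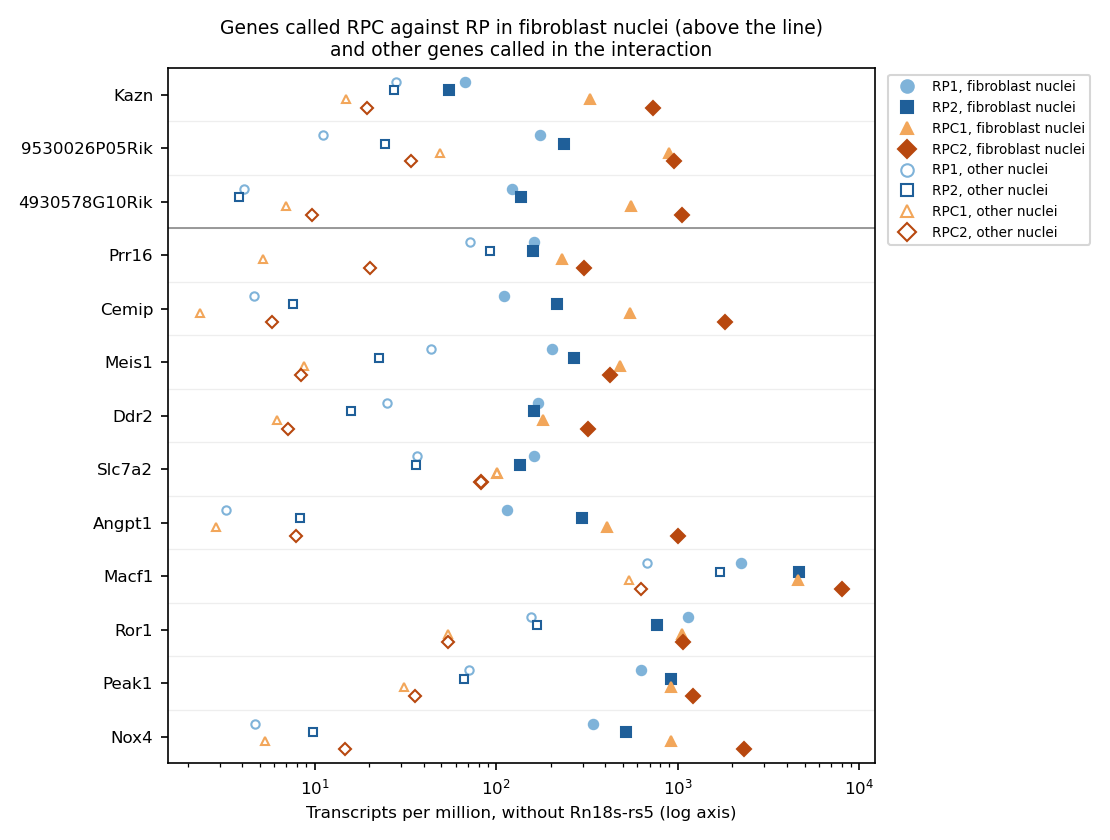
Levels of the 3 genes called RPC against RP in fibroblast nuclei (above the line) and of the other 10 genes whose change differed from that of the other nuclei, in CPM without Rn18s-rs5 on a log axis. Filled symbols are fibroblast nuclei and open symbols other nuclei, 1 symbol per animal, and for Kazn, Cemip and Angpt1 the filled RPC symbols lie to the right of the filled RP symbols.

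Whether a change in the fibroblast nuclei differed from that in the remaining nuclei was tested as an interaction with the animal as a block. At an adjusted p under 0.05 the change differed in 11 of 5730 genes (0.192%), and at an unadjusted p under 0.05 in 446 (7.78%). In 10 of the 11 the change was more positive in the fibroblast nuclei.

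Nox4, Angpt1, Cemip and Kazn stood higher in the members of both RPC animals. Nox4 (chromosome 7, 86895304 to 87047918) had 81, 169, 265 and 279 counts, or 343, 517, 922 and 2308 CPM, in 55.9% of members. The other nuclei had 4.72, 9.82, 5.33 and 14.7 CPM, and the difference of the changes was 1.47 ± 0.27 (adjusted p = 0.0460). Angpt1, the ligand of the endothelial receptor Tie2 (chromosome 15, 42288058 to 42540417), stood at 114, 297, 407 and 1009 CPM in the members and at 3.26, 8.26, 2.85 and 7.92 CPM in the other nuclei (1.96 ± 0.29, adjusted p = 0.0113). RP1 was lowest and RPC2 highest in both genes. Cemip, a hyaluronan-degrading protein, had 26, 71, 157 and 221 counts (3.40 ± 0.29, adjusted p = 6.34e-05). It was counted in 2, 7, 5 and 4 members only, and 142 of the 157 counts of RPC1 and 185 of the 221 of RPC2 lay in 1 nucleus each, so that this value describes few nuclei. Kazn had a difference of 3.74 ± 0.39 (adjusted p = 0.000320).

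In most of the others the remaining nuclei also differed between genotypes. Prr16 stood at 161, 159, 230 and 306 CPM in the members and at 71.9, 92.6, 5.20 and 20.3 CPM in the other nuclei (3.81 ± 0.44, adjusted p = 0.000777). Meis1, a homeobox factor, stood at 203, 269, 483 and 422 CPM against 43.6, 22.8, 8.79 and 8.41 CPM (2.83 ± 0.39, adjusted p = 0.00559). Ror1, a receptor for Wnt ligands, stood at 1134, 768, 1050 and 1067 CPM against 156, 169, 54.6 and 54.4 CPM (1.79 ± 0.28, adjusted p = 0.0149). These genes were lower in the other nuclei of both RPC animals. In the members, Prr16 and Meis1 were higher in both RPC animals, and Ror1 overlapped between genotypes. Ddr2, a collagen receptor (2.13 ± 0.40), and the kinase-like scaffold Peak1 (1.55 ± 0.29) followed the pattern of Prr16 and Meis1. The cytoskeletal linker Macf1 (1.84 ± 0.32) followed that of Ror1. Slc7a2, a carrier of cationic amino acids, went the other way: it stood at 161, 135, 101 and 82.7 CPM in the members and at 36.8, 36.2, 101 and 82.5 CPM in the other nuclei (-1.97 ± 0.36, adjusted p = 0.0460). Without nuclei that held 3 or more mural genes, an alternative chosen after the data had been seen, 3 of the 11 remained called (Kazn, Meis1 and Prr16), and without each gene's top nucleus 5 did (Angpt1, Kazn, Meis1, Prr16 and Ror1). Leaving out mesothelial nuclei ended the calls of Cemip (adjusted p = 0.209) and Slc7a2 (0.0573). With 1 animal left out, the calls that remained were Cemip, Kazn and Prr16 without RP1, 8 of the 11 without RP2, Cemip, Kazn and Macf1 without RPC1, and Cemip and Prr16 without RPC2. The calls of Nox4 (adjusted p from 0.140 to 0.467) and Ror1 (0.0741 to 0.209) ended each time, and that of Angpt1 held only without RP2.

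Of 419 listed genes outside the rule, 216 passed the filter on low counts, and edgeR called none of them between genotypes. At an unadjusted p under 0.05 there were 59 of the 216, beside 642 of all 5730 genes (11.2%), and DESeq2 called 5 of its 23 among them (Itga8, Svep1, Eln, Limch1 and Aldh1a1). The lists are described by counts and medians over the genes that passed the filter. A gene can pass it through the group in which it is high, so these counts are no test of a list.

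Alveolar fibroblast genes had the highest median log2 fold change of the lists with 5 or more tested genes, 1.11 over 9 of 14 genes (0.52 for the same genes in the other nuclei). RPC lay above RP in 6 and below in 1 of the 9, beside 21.1% and 22.0% of all genes. Itga8, an integrin of alveolar fibroblasts, had 17, 75, 96 and 112 counts, or 72.0, 229, 334 and 926 CPM (log2 fold change 2.00 ± 0.56, adjusted p = 0.224). Inmt had 1, 13, 37 and 18 counts (2.49 ± 0.59, adjusted p = 0.163). RP1 was the lowest animal in both, and RP2 lay nearer to RPC1 than to RP1 in Itga8. Limch1 stood at 918, 1741, 3022 and 3979 CPM (1.41 ± 0.41), and Cdh11, a mesenchymal cadherin, at 381, 346, 567 and 662 CPM. Npnt and Slit2 overlapped between genotypes.

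Growth factors and receptor kinases had a median of 0.47 over 16 of 28 genes, with RPC above RP in 10 of the 16 (21.1% of all genes) and below in none (22.0%). Vegfd, a lymphangiogenic factor, had 8, 27, 42 and 47 counts, or 33.9, 82.6, 146 and 389 CPM (log2 fold change 2.04 ± 0.52, adjusted p = 0.177). Pdgfd stood at 59.3, 42.8, 101 and 190 CPM, and the receptor Fgfr1 at 152, 190, 236 and 339 CPM. In the other nuclei Vegfd stood at 2.67 to 6.51 CPM. Fgf7, a ligand for epithelial Fgfr2, stood at 38.1, 76.5, 86.9 and 124 CPM. Hgf, Igf1, Fgf2 and Vegfa overlapped between genotypes.

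Inflammatory and complement genes had a median of 0.48 over 14 of 28 genes, with RPC above RP in 7 of the 14 (21.1% of all genes) and below in none (22.0%). C7, a component of the membrane attack complex, had 5, 178, 290 and 248 counts, of which 5, 35, 147 and 129 came from 1 nucleus each (log2 fold change 2.39 ± 0.85, adjusted p = 0.343). C3 stood at 224, 462, 546 and 620 CPM, and Osmr, the oncostatin M receptor, at 165, 306, 323 and 480 CPM. Cytokine transcripts were sparse in all animals: over all members Il6 had 6 counts, Ccl2 had 1 and Cxcl1 had 5. Il1r1 stood at 521, 269, 306 and 405 CPM with overlapping genotypes. Among lipid and retinoid genes, 7 of 17 passed the filter with a median of -0.10. Aldh1a1, which makes retinoic acid, stood at 233, 419, 922 and 1414 CPM (1.84 ± 0.38, adjusted p = 0.110), and in the other nuclei at 13.1, 21.1, 33.5 and 37.4 CPM.

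Matrix genes did not move one way. Elastic fiber and glycoprotein genes had a median of 0.05 over 19 of 26 genes, with RPC above RP in 4 and below in 3 of the 19, near or under the shares of all genes (21.1% and 22.0%). Eln stood at 1596, 1995, 4504 and 3747 CPM (log2 fold change 1.22 ± 0.36, adjusted p = 0.262), and 416 of its 1295 counts in RPC1 lay in 1 nucleus. Svep1 had a log2 fold change of 1.70 ± 0.40 (adjusted p = 0.159). Ltbp1, which binds latent TGF-beta, stood at 114, 288, 396 and 604 CPM, whereas Thbs1, thrombospondin 1, stood at 237, 621, 209 and 165 CPM. Fibrillar collagens had a median of -0.44 over 5 of 8 genes. Basement membrane and laminin genes, not all of them collagens, had -0.16 over 13 of 17, and further collagens had -0.31 over 8 of 14. Among the last, RPC lay below RP in 4 of 8 (22.0% of all genes) and above in none (21.1%). Col6a1 stood at 250, 257, 115 and 66.2 CPM (-1.38 ± 0.33, adjusted p = 0.163) and Col6a3 at 440, 346, 240 and 91.0 CPM. Of the 5 tested fibrillar collagens, RPC lay above RP in 1 and below in 2 (21.1% and 22.0% of all genes). Col5a2 was the one above, at 957, 1028, 1342 and 1142 CPM (0.35 ± 0.31, adjusted p = 0.734). Col24a1 had 24, 17, 1 and 1 counts, 15 of the 24 in 1 nucleus. Of the collagen processing genes, 12 of 22 passed the filter with a median of -0.34, and Serpinh1, the collagen chaperone, stood at 114, 91.8, 38.3 and 24.8 CPM (-1.57 ± 0.45, adjusted p = 0.240). The same genes had medians of -0.22, -0.14, -0.32 and -0.32 in the other nuclei.

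Proteoglycans (6 of 13 tested, median 0.61) had RPC above RP in 3 and below in none, and matrix proteases and inhibitors (15 of 21, median 0.40) had it above in 5 and below in 3, beside shares of 21.1% above and 22.0% below over all genes. Adamts1, a versican-cleaving protease, had 6, 11, 32 and 20 counts (log2 fold change 2.15 ± 0.44, adjusted p = 0.110), and Ogn had 2, 7, 14 and 20. Cancer-associated genes had a median of -0.19 over 7 of 15, with RPC below RP in 1, the collagen receptor Itga11 (23, 18, 4 and 1 counts, -2.55 ± 0.63, adjusted p = 0.167). TGF-beta and BMP genes had a median of 0.12 over 18 of 27, with RPC above in 5 and below in 5, near the shares of all genes (21.1% and 22.0%). The receptors Tgfbr2 (284, 291, 396 and 546 CPM) and Tgfbr3 (135, 196, 337 and 505 CPM) were among the former, and the inhibitor Smad6 (127, 85.7, 41.7 and 49.6 CPM) among the latter. Wnt and Hedgehog genes had a median of 0.00 over 9 of 29. Dkk3 stood at 80.4, 76.5, 163 and 141 CPM, and Gli2, the Hedgehog effector, at 157, 184, 167 and 215 CPM. Mesenchymal transcription factors had a median of 0.15 over 14 of 22, and Tbx4 and Tbx5, which pattern lung mesenchyme, had 14 to 46 and 17 to 61 counts per animal.

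**Figure D5:**
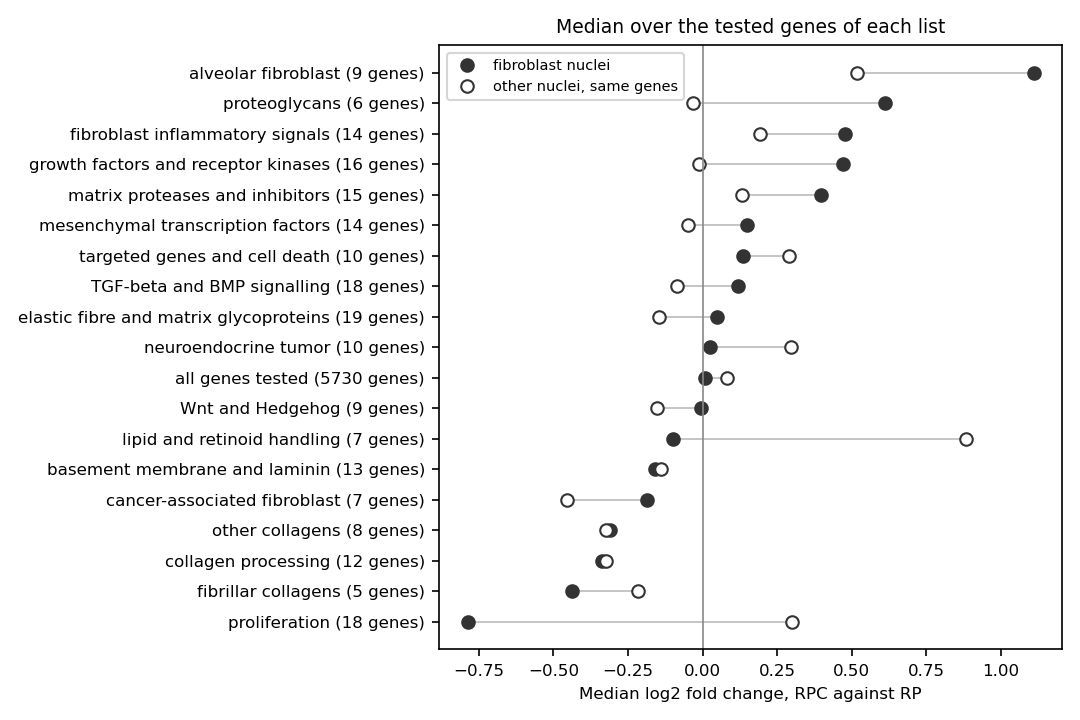
Median log2 fold change of RPC against RP over the tested genes of each list with 5 or more of them. Filled circles are fibroblast nuclei and open circles the same genes in other nuclei of the same animals, with the number of tested genes in parentheses. Of the lists drawn, the alveolar list lies highest at 1.11 and the proliferation list lowest at -0.79 in fibroblast nuclei and at 0.30 in other nuclei.

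Proliferation genes had the lowest median log2 fold change of the lists with 5 or more tested genes, -0.79 over 18 of 22, against 0.30 for the same genes in the other nuclei. RPC lay below RP in 11 of the 18 (22.0% of all genes) and above in none. No gene of the list was called by edgeR or DESeq2 between genotypes (6 had an unadjusted p under 0.05), and none in the interaction, in which 12 of the 18 had an unadjusted p under 0.05 (7.78% of all genes). Diaph3, a formin of cell division, had 67, 45, 17 and 8 counts, or 284, 138, 59.1 and 66.2 CPM, against 173, 164, 197 and 176 CPM elsewhere (difference of changes -1.83 ± 0.40, adjusted p = 0.102). Cenpe, a kinetochore motor, had 55, 63, 23 and 16 counts (-1.31 ± 0.32, adjusted p = 0.146). Mki67 stood at 478, 477, 452 and 463 CPM in the members, a narrow range that still counts among the 11, and at 763, 635, 1002 and 1386 CPM in the other nuclei. The list summed to 3475, 2576, 2069 and 2208 CPM in the members and to 4670, 3762, 5068 and 5712 CPM in the other nuclei. Cenpp and the non-coding RNA Lockd, which the rule for named genes picked in the same direction, had differences of -1.44 ± 0.32 and -1.31 ± 0.32 (adjusted p = 0.110 and 0.146). Neuroendocrine genes in the members overlapped between genotypes, both in CPM (4529, 3720, 5325 and 4409) and as a percent of the level in the other nuclei (52.0, 49.1, 49.5 and 36.1), and their part in the result was not tested.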

How the data were processed

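Transcripts of fixed nuclei had been barcoded in successive rounds of pooling and splitting with the Parse Evercode WT Mega v2 kit. The authors aligned reads to GRCm39 with Ensembl 110 genes and assigned nuclei to animals with the Parse pipeline, and deposited 1 matrix of raw transcript counts per nucleus and gene for each animal, with 56941 genes and 38353 nuclei in all. Whether counting used strand is not given in the sources used here. The 7 libraries pool all animals, so groups were taken from the animals named in the labels. No column of per-sample values was left unused (0).

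The filters that the study states were applied: at least 300 transcripts, at most 10% mitochondrial counts and at most 12000 genes. The members, gene lists and tests were chosen with earlier results of these data known. Counts of the members were summed per animal and tested with edgeR 4.0.16 in R 4.3.3 (quasi-likelihood test, TMM, filterByExpr, Benjamini-Hochberg over all genes tested). Standard errors were worked back from the F statistic and the size of the fitted change. For the interaction, sums of members and of other nuclei were fitted together over the same 5730 genes with the animal as a block. DESeq2 1.42.0 was an alternative, and it is the tool of the study. CPM values leave Rn18s-rs5 out of the total and are not TMM scaled, whereas the tests used all counts. Shares were compared by exact permutation. Gene p-values rest on the spread between 2 animals per genotype, which edgeR moderates towards that of other genes. The prior degrees of freedom were 8.91 in the test of genotypes. Exact binomial intervals cover counting error only, as does the limit of 3 counts for a count of 0. For thinning, transcripts were drawn without replacement to 1000 per nucleus.

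Genes were named by a rule: the genes of the membership rule, the targeted genes, the 15 leading genes, called genes (or the 5 with the smallest p in a direction), and listed genes by level or call. Further listed genes, among them those given with low or uncalled values, were named after their values were seen. No doublet caller was run, and leaving out nuclei above 4 times the median depth of their animal was an alternative. Other alternatives were another scaling, no filter, the animal number as a block, a stricter rule, a minimum of 500 transcripts, and each animal left out. After the data were seen, members with 2 or more mesothelial or 3 or more mural genes, and for each gene its top nucleus, were left out in turn. In counts simulated with 4-fold changes, the test of genotypes recovered 194 of 200 changed genes (5323 genes), and the interaction test 103 of 200 (5730 genes). The changed genes were drawn from the better counted ones, and all genes of the members had the same spread between animals (coefficient of variation 0.223). Counts concentrated in single nuclei, as for Kazn and Cemip, were not simulated. The recovered numbers therefore do not extend to genes with few counts or with such counts. Positions come from a GENCODE vM39 annotation of GRCm39. Python 3.11.15 was used for the remaining steps.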

Additional observations from a re-analysis of the deposited data

Results flagged for a closer look

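The change from RP to RPC differed between fibroblast and other nuclei in 11 genes (edgeR interaction, adjusted p under 0.05), on the log2 scale and as the change in fibroblast nuclei minus that in the other nuclei. Cemip had a difference of 3.40, Kazn of 3.74 and Prr16 of 3.81. Meis1 had 2.83, Angpt1 1.96, Ror1 1.79, Macf1 1.84, Nox4 1.47, Peak1 1.55 and Ddr2 2.13. Slc7a2 had -1.97 and was the only one with a negative sign. In the members alone, RPC lay above both RP animals for 8 of the 11, below both for Slc7a2, and overlapped for Ror1 and Macf1, and only Kazn was called there.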

How the results depend on the processing

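The lower share of fibroblast nuclei and the higher alveolar share in RPC kept their direction under all alternatives run (differences of -0.152 to -0.566 points and of 2.40 to 11.5 points). The animals' values did not overlap between genotypes, which does not hold for all binomial intervals. Counts of genes moved more. The fits did not all cover the same genes. Between genotypes, DESeq2 called 23 and edgeR without a filter 137, each fitted to 18548 genes. EdgeR with the animal number as a replicate block called 104 of 5730. Calls were 26 of 5226 without nuclei with mesothelial genes and 5 of 4737 without nuclei with mural genes. Without each gene's top nucleus they were 0 of 4692 (524 at an unadjusted p under 0.05). With 1 animal left out the counts ran from 34 (without RPC2) to 123 (without RP2), and the lone animal of a genotype is then assumed to vary like the others. Over genes, the difference between RP1 and RP2 and that between RPC1 and RPC2 had a correlation of 0.0797. With 1 such pair of differences, whether same-numbered animals shared a step of processing cannot be told. The 3 called genes were among the calls of DESeq2, the other scaling, no filter, the block, without mural nuclei and every left-out animal, and 2 of them without mesothelial nuclei, where Kazn was not called. With the stricter rule 4 of 2113 genes were called, none of them shared. For the interaction, DESeq2 called 22, no filter gave 69, without mesothelial nuclei 25, without mural nuclei 3, without top nuclei 5, and leaving out 1 animal 3 to 49. The interaction fit without a filter took in 18548 genes. The cause of these shifts was not tested. Among single genes, the targeted ones changed sign: Casp8 ran from -0.64 to 1.11 with 1 animal left out, Trp53 from -0.62 to 1.11 (-0.55 without RP2), -0.38 without mural nuclei and -0.082 without top nuclei, and Rb1 was -0.018 without deep nuclei. Of the other values for named genes 191 were unchanged in call and direction, 59 passed the threshold newly and 53 lost it. Few members and few transcripts per nucleus limit genes with low counts.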
